A study of Mus musculus with 11 samples.

Results

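Resident Kupffer cell and general tissue macrophage markers were followed in the livers of mice with metabolic dysfunction-associated steatohepatitis (MASH) given INT-767 or vehicle. The 10 genes were *Clec4f*, *Timd4*, *Vsig4*, *Marco*, *Cd5l*, *Folr2*, *Cd163*, *Adgre1*, *Csf1r* and *Csf1*. They were taken from the 46603 genes of the count table by a rule on the gene symbol that uses no expression value, and all 10 were found. RNA-seq of whole liver was available for 11 male B6.V-Lep ob/JRj (*ob/ob*) mice, which lack leptin. From 5 to 6 weeks of age all of them were kept on the AMLN diet (high in cholesterol, fructose and fat) for 15 weeks before dosing and throughout it. INT-767 is derived from a bile acid and is an agonist of the nuclear receptor FXR and of the membrane receptor TGR5. It was given to 4 of them by oral gavage at 10 mg/kg once daily for 8 weeks, and 7 received the carboxymethylcellulose vehicle. Each library is 1 mouse, so that the spread within a group is that between animals. There were no lean or untreated livers in the comparison, and both groups carried the *ob/ob* genotype and the diet.

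Kupffer cells are the resident macrophages of the liver sinusoids, where they clear particles, bacteria and ageing red cells from portal blood. Their survival, like that of most tissue macrophages, depends on the receptor tyrosine kinase encoded by *Csf1r*, which binds the growth factors CSF1 and IL-34. In steatohepatitis part of the resident population is known to be lost and replaced by cells derived from blood monocytes, which acquire genes such as *Clec4f* early and *Timd4* late.

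Total counts per liver were between 7966963 and 15295230 in the vehicle group (median 10878327) and between 7381211 and 16022459 in the INT-767 group (median 12034846.5). Levels are given as CPM, the counts scaled to a common library total, after TMM scaling of the library sizes. Differences are log2 fold changes of INT-767 over vehicle with their standard error (SE), and adjusted *p* are those of edgeR's quasi-likelihood test with Benjamini-Hochberg adjustment over all tested genes. A gene was called at an adjusted *p* below 0.05.

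Per length of exon, *Cd5l* was the most abundant of the 10 in the vehicle livers, at 108 ± 17.1 RPKM (TMM-scaled CPM per kilobase of exon, mean ± SD, n = 7). *Vsig4* followed at 22.9 ± 4.57 RPKM, *Clec4f* at 21.5 ± 5.62 RPKM and *Csf1r* at 17.3 ± 3.96 RPKM, and the first and the last of these lay within 1 SD of *Clec4f*. *Adgre1* stood at 9.55 ± 1.60 RPKM, and *Csf1* at 4.86 ± 1.10 and *Folr2* at 4.43 ± 1.65 RPKM did not differ beyond their spread. The 3 least abundant were *Marco* at 1.84 ± 3.12, *Timd4* at 0.771 ± 1.18 and *Cd163* at 0.205 ± 0.202 RPKM, each with an SD near or above its mean. *Clec4f*, *Vsig4* and *Cd5l*, the defining Kupffer cell markers of highest level, had counts in every liver, while *Timd4* had 138 counts over the 7 vehicle livers together and *Cd163* 86 counts.

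The starts of these genes were read for short sequence elements that macrophage factors are known to bind, each as a fixed string of letters. RefSeq promoters (GRCm38.p6) were matched for 8 of the 10 genes, all but *Adgre1* and *Csf1r*, and searched on both strands over 250 bases before and 50 after the start. The string AGGAAGT, taken here as the core for PU.1, the lineage factor of macrophages, was found only in the *Folr2* promoter, at 2 places. It is present in 9.35% of the 32851 promoters of the table. Other forms of the PU.1 element were not searched for, so that the other promoters may hold them. The nuclear receptor half-site AGGTCA was found in the promoters of *Clec4f*, starting at position -22 and read on the opposite strand as TGACCT, and of *Timd4*, starting at position -116, against 16.3% of all promoters. The AP-1 and MAF core TGACTCA stood in a second start of *Folr2* (5.20% of all promoters), and neither TATAAA (13.6% of all promoters) nor the full inverted repeat bound by FXR (0.00913%) was found in any of the 8 genes. A match is a description of letters and not a shown binding site. The 250 bases before the start are printed 5′ to 3′ on the strand of the gene for *Csf1*, the called gene among the 8 and without a match, and for *Clec4f* and *Folr2* as carriers of the half-site and the PU.1 core, with the matches in capitals. They lie at chr3:107760470-107760719, chr6:83656117-83656366 and chr7:101857191-101857440 of GRCm38, each on the minus strand.
Csf1: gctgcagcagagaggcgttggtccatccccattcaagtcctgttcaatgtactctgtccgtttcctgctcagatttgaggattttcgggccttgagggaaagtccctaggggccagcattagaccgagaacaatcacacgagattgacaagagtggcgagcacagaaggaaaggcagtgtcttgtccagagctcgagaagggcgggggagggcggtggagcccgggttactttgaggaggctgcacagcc
Clec4f: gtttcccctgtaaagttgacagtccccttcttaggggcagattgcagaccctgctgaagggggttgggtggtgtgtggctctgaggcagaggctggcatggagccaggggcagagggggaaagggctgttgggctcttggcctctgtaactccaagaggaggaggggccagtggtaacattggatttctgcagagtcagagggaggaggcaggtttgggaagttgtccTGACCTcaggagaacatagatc
Folr2: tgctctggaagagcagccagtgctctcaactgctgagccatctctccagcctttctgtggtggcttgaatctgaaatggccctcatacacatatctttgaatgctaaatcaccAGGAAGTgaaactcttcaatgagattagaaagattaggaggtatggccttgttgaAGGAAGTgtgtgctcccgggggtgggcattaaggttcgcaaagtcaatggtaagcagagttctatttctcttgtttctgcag

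In the INT-767-treated livers the CSF1 receptor and its ligand were expressed at a lower level. Of the 3 most abundant resident markers, *Vsig4* was at -0.55 on the log2 scale without being called, and *Clec4f* and *Cd5l* had treated livers on both sides of the vehicle range. Of the 10 genes, all of which passed the filter on low counts, 2 fell (*Csf1r* and *Csf1*) and 0 rose. DESeq2 called 3 of them lower, with *Adgre1* added, limma-voom 2, and both called 0 higher. Across the 13880 genes tested with edgeR, 4.68% (649 genes) fell and 5.04% (700 genes) rose. Over all genes DESeq2 called 1368 lower and 1443 higher, and limma-voom 570 lower and 606 higher. At an unadjusted edgeR *p* below 0.05, 4 of the 10 genes were lower and 0 higher, compared with 15.6% and 17.4% of all genes tested. At the adjusted threshold, 1026 genes fell and 332 rose with scaling by library size only, and 812 fell and 467 rose with upper-quartile factors. The fold change was below 0 for 9 of the 10 genes, compared with 50.6% of all genes tested, and their median log2 fold change was -0.58 against -0.01 over all. The median of the 10 genes in single vehicle livers had an SD of 0.279 on the same scale. In whole liver, fewer macrophages and less of these RNAs per macrophage cannot be told apart.

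**Figure D1:**
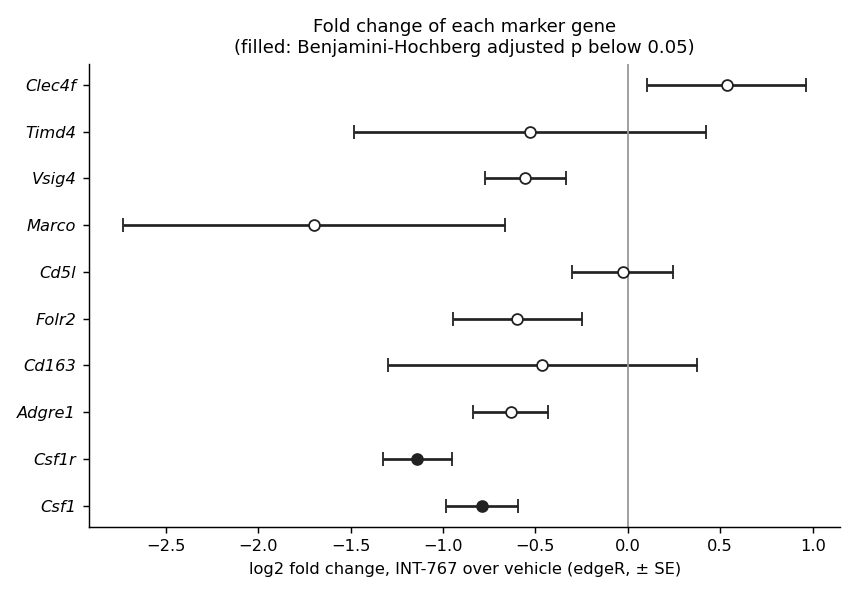
Log2 fold change of INT-767 over vehicle for each of the 10 genes (points, edgeR) with its SE (bars). Filled points mark the adjusted *p* below 0.05, reached by *Csf1r* (-1.14) and *Csf1* (-0.79), and *Clec4f* is the only point above 0.

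Single livers stood apart in ways that recur across the genes. INT-767-treated mouse 4 had the highest level of its group in 9 of the 10 genes, all but *Csf1*, and INT-767-treated mouse 3 had the lowest in 8. Vehicle-treated mouse 6 was the highest of its group in 7 genes, the exceptions being *Cd5l*, *Csf1r* and *Csf1*. Values without mouse 4 or mouse 6 are given for the markers that turn on them.

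**Figure D2:**
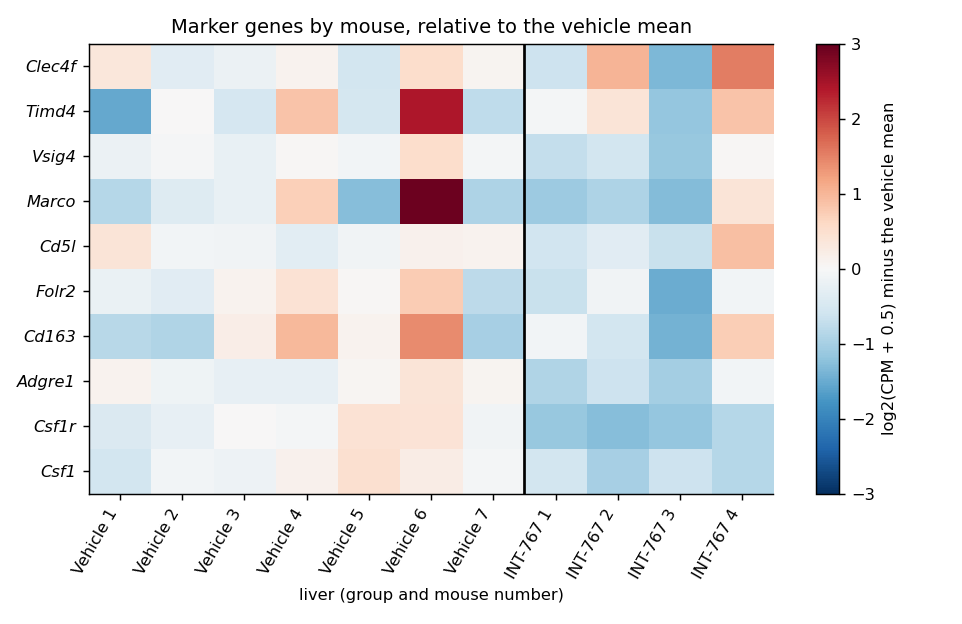
Level of each gene in each of the 11 livers as log2(CPM + 0.5) minus the mean of the 7 vehicle livers (red higher, blue lower). *Csf1r* and *Csf1* are lower in all 4 INT-767-treated livers than in the vehicle mean, vehicle mouse 6 stands out in *Timd4* and *Marco*, and INT-767-treated mice 2 and 4 stand out in *Clec4f*.

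*Csf1r* encodes the receptor through which CSF1 and IL-34 keep macrophages alive. Its level was 44.3, 40.1, 43.7 and 53.6 CPM in INT-767-treated mice 1 to 4, and ran from 72.8 through a median of 93.7 to 132 CPM in the vehicle group. All 4 treated livers were below all 7 vehicle livers, an order that 3.65% of the tested genes showed in this direction and 3.87% in the other. The mean fell from 100 ± 22.8 (SD, n = 7) to 45.4 ± 5.72 CPM (SD, n = 4), a log2 fold change of -1.14 (SE 0.19, edgeR adjusted *p* = 0.00498), and the exact two-sided Mann-Whitney *p* was 0.00606, the smallest that 7 against 4 mice can give. The fall did not rest on 1 liver, with log2 fold changes between -1.23 and -1.07 and edgeR adjusted *p* between 0.00364 and 0.0279 when each mouse was left out in turn. *Csf1r* was not called with a block for the replicate number, alone (-0.93, edgeR adjusted *p* = 0.328) or with an offset for GC content and length (-0.71, edgeR adjusted *p* = 0.298). Both of these fits left 0 genes called over all genes.

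*Csf1r* lies on chromosome 18 (61100598 to 61132149, GRCm38, plus strand), and 15.1% of its exon bases are also covered on the opposite strand by exons of *Hmgxb3*. The strand setting of the counting is not given in the sources used here, so that reads from the shared bases cannot be told apart. *Hmgxb3* itself was at 12.3 ± 3.05 CPM in vehicle and 10.4 ± 3.13 CPM in INT-767-treated livers (log2 fold change -0.24, SE 0.24, edgeR adjusted *p* = 0.494).

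*Csf1* encodes the growth factor that binds this receptor and lies on chromosome 3 (107741048 to 107760469, minus strand). The 4 treated livers had 17.1, 12.4, 16.2 and 13.8 CPM, and the vehicle livers ran from 17.1 through a median of 24.1 to 35.4 CPM. Of the treated mice, 3 were below every vehicle mouse, and mouse 1 lay just above the lowest of them, vehicle mouse 1. The mean fell from 25.7 ± 5.82 to 14.9 ± 2.16 CPM (log2 fold change -0.79, SE 0.19, edgeR adjusted *p* = 0.0277, exact Mann-Whitney *p* = 0.0121). The direction was the same in all 23 other fits, but the edgeR adjusted *p* rose to 0.114 without INT-767-treated mouse 2, to 0.0630 without mouse 4, to 0.0516 without vehicle mouse 4 and to 0.0588 without vehicle mouse 6. A block for the replicate number left 0 genes called over all genes, so that a missing call there says nothing particular to *Csf1*. With that block *Csf1* was at -0.60 (edgeR adjusted *p* = 0.525). With the block and an offset for GC content and length, which also left 0 genes called, it was at -0.40 (edgeR adjusted *p* = 0.453).

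*Adgre1* encodes F4/80, the surface protein most used to stain mouse macrophages, and lies on chromosome 17 (57358691 to 57483527, plus strand). INT-767-treated mice 1 to 4 had 16.2, 19.6, 14.9 and 28.8 CPM, and the vehicle mice had 25.6 to 40.3 CPM with a median of 32.0. Mice 1, 2 and 3 were below every vehicle mouse, and mouse 4 was inside the vehicle range. The means were 30.9 ± 5.17 and 19.9 ± 6.26 CPM, with a log2 fold change of -0.63 (SE 0.20) that did not pass the threshold (edgeR adjusted *p* = 0.0619, exact Mann-Whitney *p* = 0.0424). *Adgre1* was called in 7 of 23 other fits. Among these were the fits without INT-767-treated mouse 4 (-0.88, edgeR adjusted *p* = 0.0152), with DESeq2 (-0.63, adjusted *p* = 0.0219), with upper-quartile factors (edgeR adjusted *p* = 0.0406) and with a minimum of 10 counts in every mouse (edgeR adjusted *p* = 0.0459). The other 16 did not call it, among them limma-voom (adjusted *p* = 0.0545) and the fit without INT-767-treated mouse 2 (edgeR adjusted *p* = 0.158).

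*Vsig4*, the complement receptor with which Kupffer cells capture opsonised bacteria, lies on chromosome X (96247203 to 96293438, minus strand) and showed a similar arrangement. The treated livers had 20.1, 22.6, 15.04 and 34.5 CPM, and the vehicle livers had 28.5 to 48.7 CPM with a median of 32.3. Again mice 1, 2 and 3 were below all vehicle mice and mouse 4 was within their range. The difference from 34.0 ± 6.79 to 23.1 ± 8.24 CPM did not pass the threshold (log2 fold change -0.55, SE 0.22, edgeR adjusted *p* = 0.109, exact Mann-Whitney *p* = 0.109). It passed in 5 of 23 other fits, among them without mouse 4 (-0.83, edgeR adjusted *p* = 0.0312) and with an offset for GC content and length (-0.94, edgeR adjusted *p* = 0.0245). Without both that mouse and vehicle mouse 6 *Vsig4* and *Adgre1* were called together with *Csf1r*, while *Csf1* was not (edgeR adjusted *p* = 0.111).

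*Clec4f* encodes a C-type lectin that in the mouse is almost restricted to Kupffer cells, and lies on chromosome 6 (83644542 to 83656187, minus strand). Its level in INT-767-treated mice 1 to 4 was 33.4, 105, 20.0 and 149 CPM, compared with 35.2 to 74.3 CPM and a median of 54.7 in the vehicle group. The treated livers thus divided into 2 below and 2 above the whole vehicle range, and none lay within it. The coefficient of variation was 79.3% among treated and 26.1% among vehicle livers, and the group means of 53.1 ± 13.9 and 76.8 ± 61.0 CPM did not differ beyond this spread (log2 fold change 0.53, SE 0.43, edgeR adjusted *p* = 0.384, exact Mann-Whitney *p* = 1). Without mouse 4 the log2 fold change was -0.03.

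*Cd5l*, on chromosome 3 (87357881 to 87371073, plus strand), encodes the secreted protein AIM, an apoptosis inhibitor made by tissue macrophages. In the treated livers it was at 146, 173, 136 and 404 CPM, against 174 to 282 CPM with a median of 205 in vehicle. Mice 1, 2 and 3 were below every vehicle mouse and mouse 4 was above all of them. The means of 219 ± 34.7 and 215 ± 127 CPM were close (log2 fold change -0.03, SE 0.27, edgeR adjusted *p* = 0.947, exact Mann-Whitney *p* = 0.230), and the value turned on 1 liver. Without mouse 4 the log2 fold change was -0.54 (edgeR adjusted *p* = 0.0752), and without mouse 1, 2 or 3 it was 0.12, 0.04 and 0.14.

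*Folr2*, the folate receptor of resident macrophages on chromosome 7 (101839988 to 101857194, minus strand), had 3.87, 5.93, 1.97 and 6.13 CPM in the treated livers and 3.55 to 11.3 CPM in the vehicle livers. The groups overlapped in all but mouse 3 (means 6.84 ± 2.56 and 4.48 ± 1.96 CPM, log2 fold change -0.60, SE 0.35, edgeR adjusted *p* = 0.234). Exons of *Gm10602* on the opposite strand cover 63.1% of its exon bases, with *Gm10602* itself at 1.11 ± 0.556 CPM in vehicle and 0.893 ± 0.566 CPM in INT-767-treated livers.

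The scavenger receptors *Marco* and *Cd163* and the phosphatidylserine receptor *Timd4*, a marker of long-lived resident Kupffer cells, were near the limit of these libraries. *Marco* (chromosome 1, 120474538 to 120505024) had 0.571, 0.690, 0.422 and 2.47 CPM in the treated livers and 0.435 to 3.24 CPM in 6 of the vehicle livers, but 17.0 CPM in vehicle mouse 6. The log2 fold change of -1.70 (SE 1.03, edgeR adjusted *p* = 0.255) became -0.22 without that mouse. *Timd4* (chromosome 11, 46810800 to 46844332) showed the same liver apart, at 7.29 CPM against 0 to 2.12 CPM in the other vehicle mice and 0.141 to 2.09 CPM in the treated mice.

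The 0 was vehicle mouse 1, where a count of 0 allows up to 0.380 CPM (3 counts of the TMM-scaled total, counting error only). The log2 fold change of *Timd4* was -0.53 (SE 0.95, edgeR adjusted *p* = 0.704), but the direction turned on 1 liver. The mean of the treated livers, 1.13 CPM, was below the vehicle mean of 1.68 CPM and above the 0.741 CPM that remained without vehicle mouse 6, where *Timd4* no longer passed the filter and had no fitted value. *Cd163* (chromosome 6, 124304656 to 124330527) had 0 to 1.72 CPM in treated and 0.175 to 3.08 CPM in vehicle livers (log2 fold change -0.46, SE 0.84, edgeR adjusted *p* = 0.707), and without vehicle mouse 6 its log2 fold change was 0.0763 (edgeR adjusted *p* = 0.956). A difference in these 3 genes was not detectable at this depth and with this spread between mice.

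**Figure D3:**
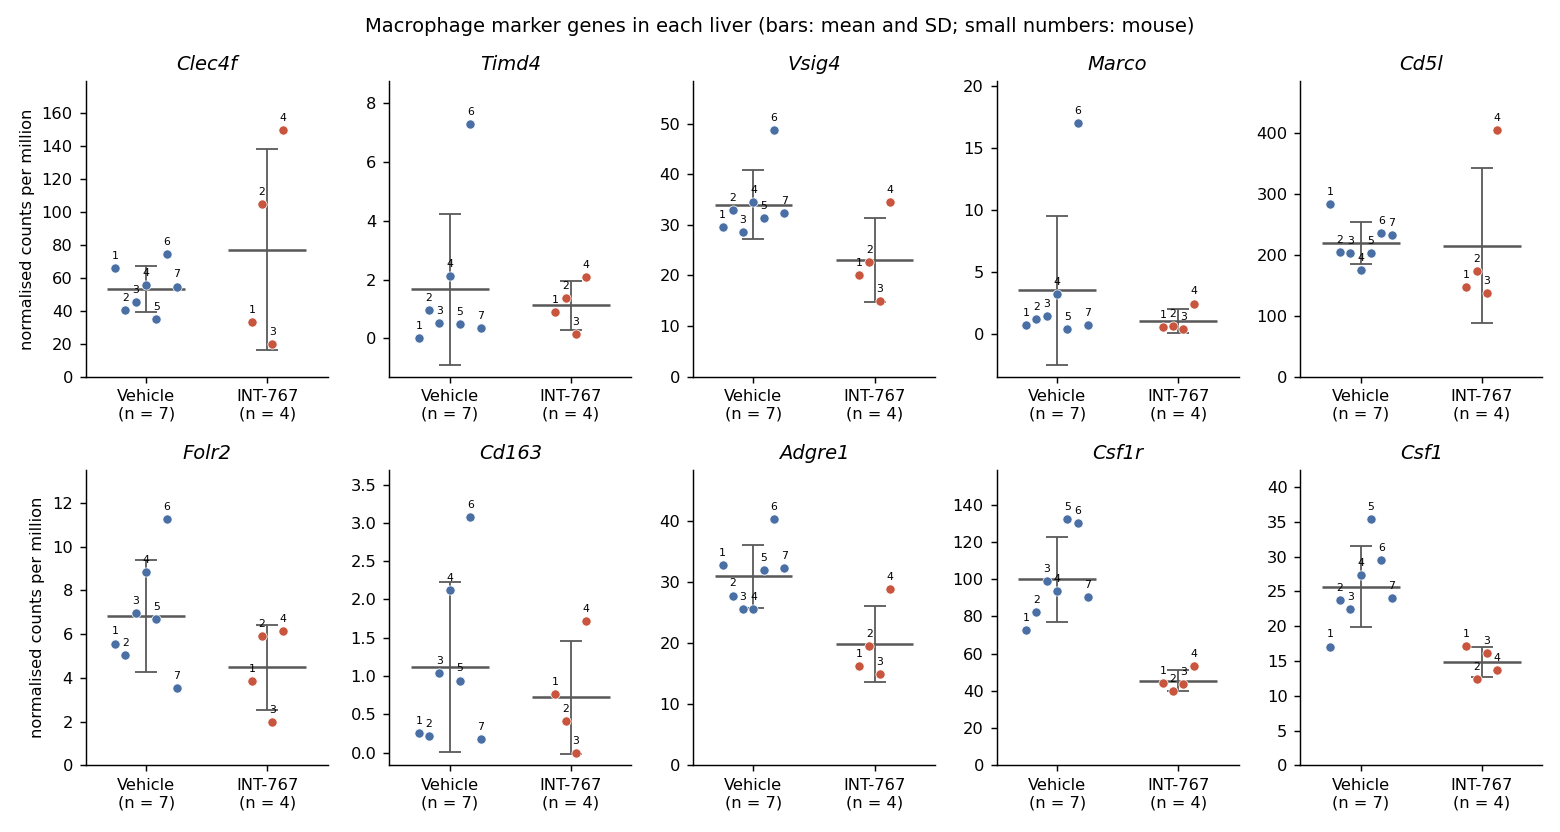
CPM of each gene in each liver (points, with the number of the mouse), with the mean and SD of the 7 vehicle and 4 INT-767-treated livers (bars). The groups separate in *Csf1r* (at most 53.6 against at least 72.8 CPM), the treated livers lie on both sides of the vehicle range in *Clec4f* and *Cd5l*, and vehicle mouse 6 carries the highest *Marco* and *Timd4*.

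The markers were also related to a list of 15 genes expressed by macrophages of any origin. Of these pan-macrophage genes 7 fell and 0 rose, all 15 had a fold change below 0, and the median was -0.77. Of all genes tested, 4.68% fell, 5.04% rose and 50.6% had a fold change below 0. The lysosomal protease gene *Ctss* fell from 155 ± 16.7 to 82.9 ± 15.7 CPM (log2 fold change -0.90, edgeR adjusted *p* = 0.00573). *Mpeg1*, encoding the pore-forming protein perforin-2, fell from 251 ± 31.1 to 120 ± 31.5 CPM (-1.06, edgeR adjusted *p* = 0.00691), and the late endosomal marker *Cd68* from 28.3 ± 4.96 to 12.6 ± 4.09 CPM (-1.16, edgeR adjusted *p* = 0.00944).

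*Fcer1g*, the common signalling chain of Fc receptors, fell by 0.98 on the log2 scale (edgeR adjusted *p* = 0.00915). The most abundant gene of the list, the lysozyme gene *Lyz2*, had 282 ± 106 CPM in vehicle and 214 ± 124 CPM in treated livers (log2 fold change -0.40, edgeR adjusted *p* = 0.417). The summed level of the list was 712, 617, 679 and 1298 CPM in INT-767-treated mice 1 to 4 and 1000 to 1612 CPM in the vehicle mice (median 1275). Mice 1, 2 and 3 were below all vehicle mice and mouse 4 was within their range, the arrangement also seen in *Adgre1* and *Vsig4*.

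Of the markers set against this sum, *Cd5l* was at 20.6, 28.0, 20.1 and 31.1 CPM per 100 CPM of the summed pan-macrophage genes in the treated livers, all above the 15.6 to 19.6 of the vehicle livers (means 24.9 ± 5.46 and 17.5 ± 1.43). The sum itself had a mean of 1259 ± 228 CPM in vehicle and 826 ± 317 CPM in treated livers. In CPM, *Cd5l* was at -0.03 on the log2 scale, with 3 treated livers below and 1 above the vehicle range. The share of all genes that would separate in this way on this scale was not counted. *Clec4f* was at 4.70, 17.0, 2.94 and 11.5 per 100, of which 2 were above the vehicle range of 2.75 to 5.83. Its log2 ratio of treated to vehicle livers went from 1.08 to 0.58 without INT-767-treated mouse 2. That of *Cd5l* went from 0.51 to 0.39 without INT-767-treated mouse 4. The means of *Vsig4* (2.78 ± 0.717 in vehicle, 2.84 ± 0.607 in treated livers), *Adgre1* (2.49 ± 0.373 and 2.47 ± 0.472) and *Folr2* (0.569 ± 0.248 and 0.567 ± 0.284) differed by less than their SD. Those of the low-count markers *Marco* (0.291 ± 0.471 and 0.111 ± 0.0566), *Timd4* (0.141 ± 0.202 and 0.133 ± 0.08499) and *Cd163* (0.0955 ± 0.0950 and 0.0766 ± 0.0578) differed by less than the SD of the vehicle livers, and moved with single livers. Without vehicle mouse 6 the log2 ratio of treated to vehicle livers went from -1.39 to -0.07 for *Marco*, from -0.08 to 0.95 for *Timd4* and from -0.32 to 0.11 for *Cd163*. The sign also turned without vehicle mouse 4 (0.04 for *Timd4* and 0.01 for *Cd163*) and without INT-767-treated mouse 3 (0.27 and 0.10).

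*Csf1r* was lower on this scale as well, at 8.18 ± 2.18 per 100 in vehicle and 5.82 ± 1.14 in treated livers, although the groups overlapped. These ratios are a description, no test was run on them, and they depended on the denominator. With *Csf1r* alone in place of the 15 genes, the log2 ratio of treated to vehicle livers moved from 0.03 to 0.53 for *Vsig4*, from -0.01 to 0.44 for *Adgre1*, from -0.01 to 0.53 for *Folr2*, from 0.51 to 0.98 for *Cd5l* and from 1.08 to 1.57 for *Clec4f*. For the low-count markers it moved from -0.08 to 0.71 for *Timd4*, from -0.32 to 0.54 for *Cd163* and from -1.39 to -0.53 for *Marco*. With *Adgre1* alone it was 0.06 for *Vsig4*, -0.01 for *Folr2*, 0.52 for *Cd5l* and 1.02 for *Clec4f*. On that denominator it was 0.07 for *Timd4*, -0.16 for *Cd163* and -1.13 for *Marco*. The most abundant terms of the denominator, *Lyz2* among them, are also expressed by monocytes and other myeloid cells.

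**Figure D4:**
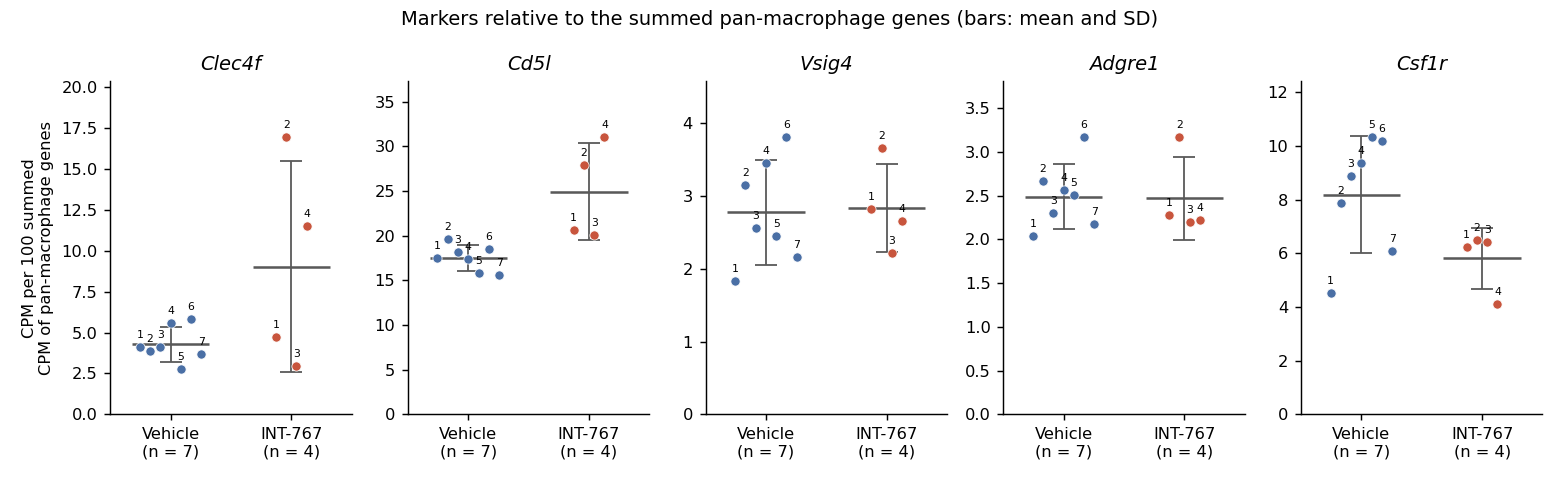
CPM of 5 markers per 100 CPM of the summed 15 pan-macrophage genes in each liver (points, with the number of the mouse), with mean and SD of the 7 vehicle and 4 INT-767-treated livers (bars). *Cd5l* is above the vehicle range in all 4 treated livers (at least 20.1 against at most 19.6), *Clec4f* in 2 of them, and *Vsig4* and *Adgre1* have nearly equal means in the groups. The sum in the denominator had a lower mean in treated (826 CPM) than in vehicle livers (1259 CPM).

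Receptor genes of other colony-stimulating factors and *Spi1* fell besides *Csf1r* and *Csf1*, while *Il34* and *Tyrobp* were not called. Of 10 genes on a list of colony-stimulating factors, their receptors and partners, which also holds *Csf1r* and *Csf1*, 8 could be tested and 6 fell, with a median log2 fold change of -0.92. Without INT-767-treated mouse 2 the number called was 2. Of all genes tested, 4.68% (649 genes) fell, and 110 genes fell without that mouse. *Csf2rb*, the signalling chain of the GM-CSF receptor, fell from 16.4 ± 4.26 to 6.59 ± 1.75 CPM (-1.30, edgeR adjusted *p* = 0.00896). *Csf3r*, the G-CSF receptor of neutrophils and monocytes, fell from 5.87 ± 2.00 to 2.08 ± 0.728 CPM (-1.49, edgeR adjusted *p* = 0.0174).

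*Spi1*, which encodes PU.1, fell from 13.01 ± 1.95 to 6.96 ± 1.68 CPM (-0.89, edgeR adjusted *p* = 0.0141), with all treated livers below all vehicle livers. The second ligand of the receptor, *Il34*, was at 4.94 ± 0.701 and 4.97 ± 2.26 CPM (log2 fold change 0.02, edgeR adjusted *p* = 0.963), and this gene was named after its values were seen. *Csf2* had no count in any liver, and the adaptor gene *Tyrobp* did not pass the threshold (-0.21, edgeR adjusted *p* = 0.663).

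Further genes enriched in Kupffer cells moved in both directions. Of 12 such companion genes 11 were tested, 2 fell and 1 rose (median log2 fold change -0.54), while DESeq2 called 4 lower and 2 higher. Among all genes edgeR called 649 (4.68%) lower and 700 (5.04%) higher, and DESeq2 1368 lower and 1443 higher. The iron exporter gene *Slc40a1* rose from 140 ± 40.8 to 241 ± 45.3 CPM (0.78, SE 0.22, edgeR adjusted *p* = 0.0416). The haem-degrading enzyme gene *Hmox1* fell from 33.8 ± 8.69 to 14.6 ± 3.19 CPM (-1.21, edgeR adjusted *p* = 0.00689).

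*C6*, a complement component that hepatocytes are also known to make, fell from 68.1 ± 14.3 to 22.0 ± 7.44 CPM (-1.63, edgeR adjusted *p* = 0.00403). The adhesion receptor gene *Vcam1*, which sinusoidal endothelium shares, did not pass the threshold (-0.27, edgeR adjusted *p* = 0.476). For the 2 lists that follow, edgeR called 4.68% of all genes lower and 5.04% higher, and DESeq2 1368 genes lower and 1443 higher. Of 10 transcription factors of Kupffer cell identity only *Spi1* was called by edgeR, while DESeq2 called 2 lower and 1 higher. The LXR alpha gene *Nr1h3*, needed for that identity, was at 68.4 ± 5.34 and 89.4 ± 12.01 CPM (0.39, edgeR adjusted *p* = 0.0672) and was called higher with DESeq2 (adjusted *p* = 0.00984) and with the GC content and length offset (edgeR adjusted *p* = 0.0298). Its partner *Rxra* was at -0.37 (edgeR adjusted *p* = 0.322), and hepatocytes express both genes too. Of 10 genes of the niche signals that imprint Kupffer cells, Notch, TGF-beta and BMP ligands with their receptors and mediators, 1 was called. It was *Tgfbr2*, which fell from 68.6 ± 14.7 to 39.8 ± 8.63 CPM (-0.79, edgeR adjusted *p* = 0.0302) but was not called with the offset (-0.35, edgeR adjusted *p* = 0.0763), while *Tgfbr1* was at 0.40 (edgeR adjusted *p* = 0.340).

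Genes of recruited macrophages and monocytes were examined because these cells share *Csf1r* and *Adgre1*. Of 12 lipid-associated macrophage genes 2 fell, the tetraspanin genes *Cd9* (52.1 ± 6.91 to 30.8 ± 6.11 CPM, -0.76, edgeR adjusted *p* = 0.0154) and *Cd63* (106 ± 12.6 to 50.1 ± 23.0 CPM, -1.08, edgeR adjusted *p* = 0.0232). DESeq2 called 6 of these 12 genes lower and limma-voom 5 (1368 and 570 over all genes). At an unadjusted edgeR *p* below 0.05, 8 were lower (15.6% of all genes). The edgeR share of all genes that fell, for this list and the next, was 4.68%. All 12 were below 0, with a median of -0.85, but the most abundant, *Spp1* (osteopontin), at -0.44 (edgeR adjusted *p* = 0.422), and the lipoprotein lipase gene *Lpl*, at -1.01 (edgeR adjusted *p* = 0.0591), did not pass the threshold. Of 11 monocyte genes 10 were tested and 2 fell, the integrin gene *Itgam* (CD11b, 11.1 ± 2.77 to 3.27 ± 1.38 CPM, -1.73, edgeR adjusted *p* = 0.00498) and the fractalkine receptor gene *Cx3cr1* (13.04 ± 3.95 to 4.02 ± 1.83 CPM, -1.69, edgeR adjusted *p* = 0.00955). The chemokine receptor gene *Ccr2*, most abundant in that list, was at -0.16 (edgeR adjusted *p* = 0.848) and *Plac8* at 0.07 (edgeR adjusted *p* = 0.869). The summed monocyte genes were at 40.3, 53.4, 47.8 and 134 CPM in INT-767-treated mice 1 to 4 and 75.3 to 133 CPM in vehicle, so that mouse 4 was above every vehicle mouse and the other 3 below all of them.

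**Figure D5:**
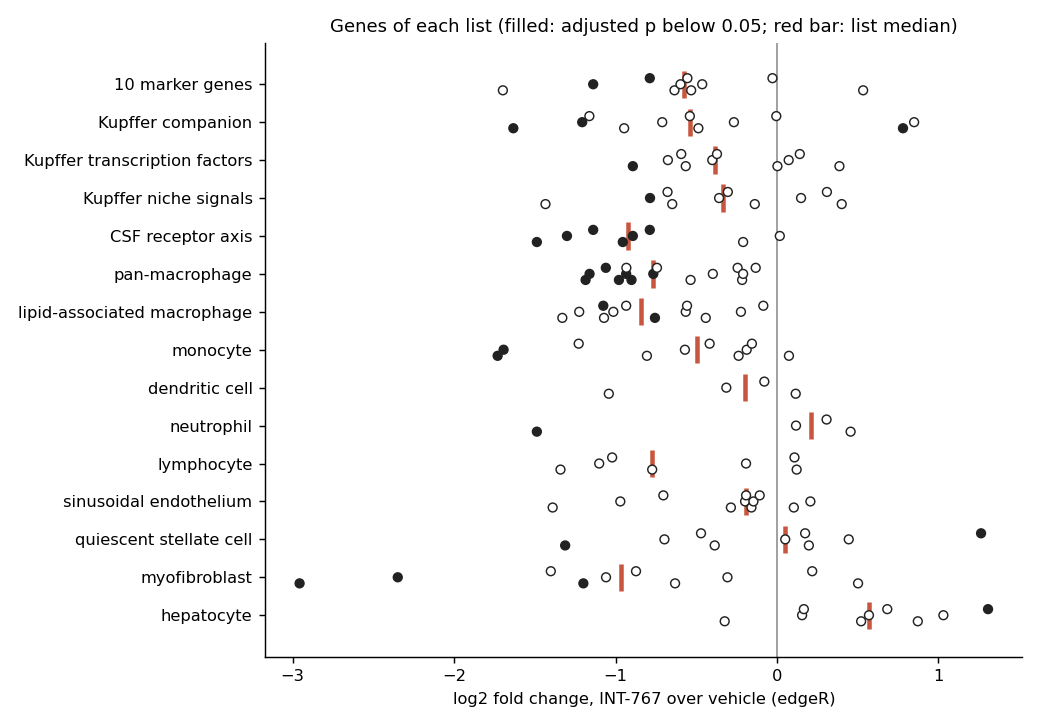
Log2 fold change of every tested gene of the 10 markers and of 14 companion lists (points, filled at an adjusted *p* below 0.05), with the median of each list (red bars). The medians of the myofibroblast (-0.97), CSF receptor axis (-0.92), lipid-associated macrophage (-0.85), pan-macrophage (-0.77) and lymphocyte lists (-0.77) lie to the left of that of the 10 markers (-0.58), and the hepatocyte median (0.57) lies to the right of 0.

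Some markers of other liver cells were called as well, and their part in the results above was not tested. The summed level of 9 hepatocyte genes, most of it *Alb*, was 84698 to 123692 CPM in treated and 64270 to 84898 CPM in vehicle livers, with 3 treated livers above the whole vehicle range and mouse 4 the lowest of the treated. Of the 9, DESeq2 called 5 higher, *Alb* among them (adjusted *p* = 0.0266), limma-voom 1, and edgeR only *Ass1*, a urea cycle gene (818 ± 173 to 2026 ± 530 CPM, 1.31, edgeR adjusted *p* = 0.00450), while *Alb* (0.57, edgeR adjusted *p* = 0.0891) and *Apob* (0.87, edgeR adjusted *p* = 0.106) did not pass the threshold. At an unadjusted edgeR *p* below 0.05, 6 were higher, against the 17.4% of all genes given above. At the adjusted threshold edgeR called 5.04% of all genes higher and 4.68% lower. DESeq2 called 1443 genes higher and 1368 lower, and limma-voom 606 and 570. Of 10 myofibroblast genes (median -0.97) 3 fell, *Col1a1* (-2.96), *Col1a2* (-2.35) and *Loxl1* (-1.20), with edgeR adjusted *p* of 0.0297, 0.0272 and 0.0291, whereas *Col3a1* (-1.40, edgeR adjusted *p* = 0.0516) and the most abundant gene of the list, *Dcn* (0.22, edgeR adjusted *p* = 0.441), did not pass. The summed level of this list was 605 to 1353 CPM in treated and 860 to 1762 CPM in vehicle livers.

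Among 11 sinusoidal endothelial genes edgeR called 0 (median -0.19), DESeq2 1 lower (1368 over all genes) and limma-voom 0. At an unadjusted edgeR *p* below 0.05, 3 were lower (15.6% of all genes). *Stab1* (-1.39, edgeR adjusted *p* = 0.0739) and *Stab2* (-0.97, edgeR adjusted *p* = 0.110) were the most abundant over all 11 livers, but *Mrc1* (39.9 CPM) and *Fcgr2b* (38.5 CPM) were above them in the treated livers. For every list of this paragraph, edgeR called 5.04% of all genes higher and 4.68% lower. Of 9 genes on a list drawn up for quiescent stellate cells (median 0.05) *Angptl6* rose (1.26, edgeR adjusted *p* = 0.0129) and *Pdgfrb* fell (-1.31, edgeR adjusted *p* = 0.0302). On the same list *Reln* (-0.70, edgeR adjusted *p* = 0.154) and *Rgs5* (0.44, edgeR adjusted *p* = 0.231) did not pass. Dendritic cell genes (4 of 8 tested, among them *Zbtb46* at -0.31 and *Clec9a* at 0.12) and lymphocyte genes (7 of 10 tested, among them *Cd79b* at -1.10 and *Cd79a* at -0.19) gave 0 calls by edgeR, DESeq2 and limma-voom, with 1 and 2 genes lower at an unadjusted edgeR *p* below 0.05 (15.6% of all genes). Of 4 tested neutrophil genes only *Csf3r* fell, and the most abundant of the others, *S100a9*, was at 0.46 (edgeR adjusted *p* = 0.571). The summed neutrophil genes were at 30.9 CPM in INT-767-treated mouse 4, against 4.64 to 8.97 CPM in the other treated and 11.9 to 18.5 CPM in the vehicle livers.

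The pattern over the 11 livers was compared with that of every tested gene by the root mean square (RMS) difference of standardised log2 CPM, a description in which both groups and all depths take part. For *Csf1r* the nearest genes were *Axl*, a receptor of the TAM family that macrophages use in clearing dead cells (RMS difference 0.158, against a median of 1.38 over all genes), *Ppp1r18*, the leukocyte kindlin gene *Fermt3*, *Itgam* and *Prune2*. *Csf1* was the 80th nearest gene to *Csf1r* (0.395), *Adgre1* the 815th (0.622) and *Vsig4* the 1166th (0.686). For *Csf1* the nearest were *Gatsl2* (0.212), *Rab13*, *Plekho2*, *Afap1* and *Arhgap25*.

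*Clec4f* had other neighbours. They were *Pex10* (0.344), *Ccdc28b*, *Prmt6*, *Rrnad1* and *Wfdc17* (0.459, against a median of 1.42 over all genes). None of them was called in the comparison of the groups, and neither was *Clec4f*. The group difference is part of the distance by which they were picked, so that this is not a separate result. Of the other 9 markers *Cd5l* was the nearest to *Clec4f*, as the 220th gene (0.727), and *Csf1r* was the 7151st (1.45), farther than the median gene.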

How the data were processed

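The authors deposited 1 table of whole-number read counts per gene for the 11 livers, with no normalization. According to the study's methods the libraries were stranded poly-A mRNA, sequenced for 75 cycles and aligned with STAR to GRCm38. Per the labels, the tissue for RNA came from the left lateral lobe. The submitters' processing notes name STAR 2.4.0 and the supplementary methods a later version. Neither the counter, nor whether it used strand, nor a batch is given in the sources used here. Only part of the mice of the trial was sequenced. Every value column was mapped to 1 mouse.

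The deposited counts were tested in R 4.3.3 with edgeR 4.0.16: TMM factors, filterByExpr (minimum count 10, minimum total 15), a robust glmQLFit, and glmQLFTest of treatment without covariates. Of 27306 genes with a count, 13880 were tested, with Benjamini-Hochberg adjustment and a threshold of 0.05. The exact Mann-Whitney *p* of a single gene is two-sided and enumerates all 330 assignments. RPKM used the union of exons of GENCODE M21 (GRCm38), the source of the gene coordinates. The scripts were tested on simulated data.

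The 10 genes, the 14 companion lists and the tests were chosen with earlier results of these data known. Named were all 10 genes, up to 4 called genes and the 2 most abundant of each list (by mean CPM over all 11 livers), and the 5 genes nearest in pattern to *Clec4f*, *Csf1r* and *Csf1* (prior count 2). For 1 gene that this rule named, the result is not reported here. Alternatives were other scalings and filters, DESeq2 1.42.0, limma-voom (limma 3.58.1) with and without sample weights, a block for the replicate number, an offset for GC content and length, and leaving out each mouse. The closest pair of libraries, vehicle mice 5 and 6, had a median chi-square per gene of 1.11, where 2 draws of 1 library give 0.455, so that all 11 were kept. Ratios and pattern distances between genes are descriptions.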

Additional observations from a re-analysis of the deposited data

Results flagged for a closer look

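Of 66 groups of values checked, 12 held a liver whose gap to the nearest of the others, as a share of the range of its group, was above Dixon's critical value for a group of that size. Chance puts about 1 in 20 single groups above it, but these groups share livers and genes and are not independent. Vehicle-treated mouse 6 was such a liver for *Timd4* (7.29 CPM against 0 to 2.12 in the other 6), *Vsig4* (48.7 CPM against 28.5 to 34.5) and *Marco* (17.0 CPM against 0.435 to 3.24). It was also apart per 100 CPM of the summed pan-macrophage genes, at 0.572 for *Timd4* and 1.33 for *Marco*.

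INT-767-treated mouse 4 was apart for *Cd5l* (404 CPM against 136 to 173 in the other 3 treated mice) and *Marco* (2.47 CPM against 0.422 to 0.690). The same liver was apart for the summed pan-macrophage genes (1298 CPM against 617 to 712), monocyte genes (134 CPM against 40.3 to 53.4) and neutrophil genes (30.9 CPM against 4.64 to 8.97). Relative to the pan-macrophage sum its *Csf1r* was the lowest of the treated livers, at 4.13 per 100 against 6.23 to 6.50. INT-767-treated mouse 2 was apart for *Adgre1* on that scale, at 3.17 per 100 against 2.19 to 2.28.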

How the results depend on the processing

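The fall of *Csf1r* was called in 21 of 23 other fits and that of *Csf1* in 16, and neither changed direction. Of the 10 markers, those called lower numbered 1 to 3 when single mice were left out (1 without INT-767-treated mouse 2, vehicle mouse 4 or vehicle mouse 6, 3 without INT-767-treated mouse 4), with a median log2 fold change between -0.85 and -0.38. They numbered 4 with scaling by library size only and with limma-voom sample weights (median -1.04), adding *Adgre1* and *Vsig4*. Over all genes, edgeR's 700 higher and 649 lower calls became 164 to 1906 and 110 to 1370 when 1 mouse was left out, fewest without INT-767-treated mouse 2 and most without vehicle mouse 1. They were 1443 and 1368 with DESeq2, 1658 and 1219 with sample weights, 1073 and 811 with the GC content and length offset, 332 and 1026 with library size only and 467 and 812 with upper-quartile factors. Library size only moved the median of all genes to -0.22. Without both vehicle mouse 6 and INT-767-treated mouse 4, a choice made after seeing the data, 257 genes were higher and 227 lower, with 3 markers called (median -0.71). The lipid-associated list had 6 genes lower with DESeq2 and 5 with limma-voom, against 2 with edgeR. The replicate numbers shared by the groups did not pair the mice (correlations of deviations -0.69, 0.22, 0.15 and -0.48, and no treated mouse correlated best with its own number). A block for that number, alone or with the offset, gave 0 higher and 0 lower calls and 0 markers, with *Csf1r* at -0.93 and -0.71 and *Csf1* at -0.60 and -0.40.

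The direction reversed for some genes that were not called. With the offset, *Plac8* was at -0.14, *Dcn* at -0.22 and *S100a9* at -0.19. With the replicate block and offset, *Timd4* was at 0.23, *Plac8* at -0.0615, *Dcn* at -0.17, *Zbtb46* at 0.0384, *Clec9a* at -0.0083 and *S100a9* at -0.49. The replicate block alone gave 0.48 for *Timd4*, -0.18 for *S100a9* and 0.0354 for *Cd79a*. Without both mice named above, *Plac8* was at -0.29, *Dcn* at -0.0248 and *S100a9* at -0.98. Library size only gave -0.17 for *Plac8*, -0.0094 for *Dcn* and -0.0915 for *Clec9a*, and upper-quartile factors -0.0156 for *Plac8*. limma-voom gave 0.34 for *Timd4* and -0.18 for *S100a9*, and with sample weights -0.47 for *Clec4f* and -0.95 for *S100a9*. Leaving out single mice gave -0.0294 to 0.86 for *Clec4f*, -0.54 to 0.14 for *Cd5l*, -1.27 to 0.0763 for *Cd163*, -1.21 to 0.13 for *Ccr2*, -0.35 to 0.11 for *Cd79a*, -0.27 to 0.29 for *Plac8*, -0.0227 to 0.36 for *Dcn* and -0.99 to 0.80 for *S100a9*. The causes were not tested. *Timd4*, *Marco* and *Cd163*, with 191, 341 and 124 counts in all, had the fewest counts of the 10 markers.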
